A study of Mus musculus with 30 samples.

Results

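*Cyp1b1* and 5 genes of the aryl hydrocarbon receptor pathway (*Ahr*, *Arnt*, *Ahrr*, *Tiparp* and *Cyp1a1*) were described across 10 sorted stromal populations of the mouse gut. These 6 of the 32316 gene symbols measured were chosen by the levels of *Cyp1b1*, which was nearly absent from 2 colonic populations. The levels of *Cyp1b1* are therefore a description with no test, and of the other 5 genes, 4 had enough counts to be tested. Bulk RNA-seq libraries came from the lamina propria of untreated adult C57BL/6Nrj mice, 8 to 10 weeks old, after the outer muscle layer had been stripped off. Dead cells and cells positive for lineage markers, CD31, BP3 or EpCAM, or high for NCAM, had been left out by flow cytometry, and the RNA was amplified before sequencing. There were 3 libraries per population and 30 in all, with total estimated counts from 2245052 (replicate 3 of small intestinal Fgfr2+ FB) to 19096945. The labels speak of individual mice, but the libraries came from 3 experiments, and the subsets of both tissues are described as taken from shared animals, so that the 30 libraries need not stand for 30 mice. Which of them share a mouse is not stated.

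In both tissues pericytes were PDGFRα-ESAM-1+PDPN-. Small intestinal smooth muscle cells (SMC) were PDGFRα-ESAM-1+PDPN+. Among small intestinal fibroblasts (FB), which were ESAM-1-, CD34+ FB were PDGFRα intCD34+ and mix the Igfbp5+ and CD81+ subsets, Fgfr2+ FB were PDGFRα intCD34-, and PDGFRα hi FB were PDGFRα hiCD34-. Among colonic FB, also ESAM-1-, CD81+ FB were PDPN intCD34+CD90-, CD90+ FB were CD34+PDPN hiCD90+, Fgfr2+ FB were PDPN hiCD34+CD90-, and PDGFRα hi FB were PDPN+CD34-. The digestion (shaking for the small intestine, a magnetic stirrer for the colon) differed with the tissue, and so did the gates of the FB, though not that of the pericytes. Tissue cannot be told apart from digestion in any comparison between tissues, nor from the gate in those of FB.

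The aryl hydrocarbon receptor is a ligand-activated transcription factor that waits in the cytoplasm in a complex with HSP90 and other chaperones. Once bound by dietary, microbial or pollutant molecules it enters the nucleus, pairs with ARNT and binds DNA at short elements near target genes, among them genes for the cytochrome P450 enzymes CYP1A1 and CYP1B1. Other targets, *Ahrr* and *Tiparp*, encode proteins that restrain the receptor, and in the gut the pathway is best known from epithelial and immune cells.

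*Cyp1b1* (chromosome 17, 79701537 to 79715061, GRCm38) encodes a P450 enzyme that oxidises steroids, retinoids and polycyclic hydrocarbons. Its levels are given in CPM, scaled with TMM over the 30 libraries. In small intestinal CD34+ FB the 3 libraries held 105, 116.5 and 61.9 CPM of *Cyp1b1* (94.5 ± 28.8, mean ± SD, n = 3). The levels were 53.0, 131.3 and 70.2 CPM in small intestinal Fgfr2+ FB (84.8 ± 41.2) and 51.6, 79.1 and 35.4 CPM in SMC (55.4 ± 22.1). All 3 of these populations overlapped in *Cyp1b1*. In small intestinal PDGFRα hi FB the libraries lay at 15.6, 30.6 and 34.5 CPM (26.9 ± 9.94), just below the lowest SMC library. Small intestinal pericytes held 2, 46 and 3 counts, or 0.410, 5.59 and 0.364 CPM (2.12 ± 3.01). Along this order the 2 steps from SMC to PDGFRα hi FB and from PDGFRα hi FB to pericytes were free of overlap, and the steps among the first 3 populations were not.

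In the colon *Cyp1b1* was close to 0 in all 5 populations and not in 2 alone. Colonic CD90+ FB and Fgfr2+ FB had 0 counts in each library, PDGFRα hi FB had 1 count in replicate 3, pericytes had 4 counts in replicate 1, and CD81+ FB had 19 counts in replicate 2 (1.17 CPM). Added up, the 15 small intestinal libraries held 8049 *Cyp1b1* counts and the 15 colonic libraries 24, with 12 colonic libraries at 0. A library with 0 counts allows up to 3, and against that floor (a mean of 0.314 CPM in colonic Fgfr2+ FB) *Cyp1b1* was at least 270.6-fold higher in small intestinal than in colonic Fgfr2+ FB. In PDGFRα hi FB, where the colon had 1 count, the means were 26.9 and 0.0453 CPM. Such a floor covers counting error only. In bulk libraries, fewer cells with a transcript and less of it per cell cannot be told apart.

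**Figure D1:**
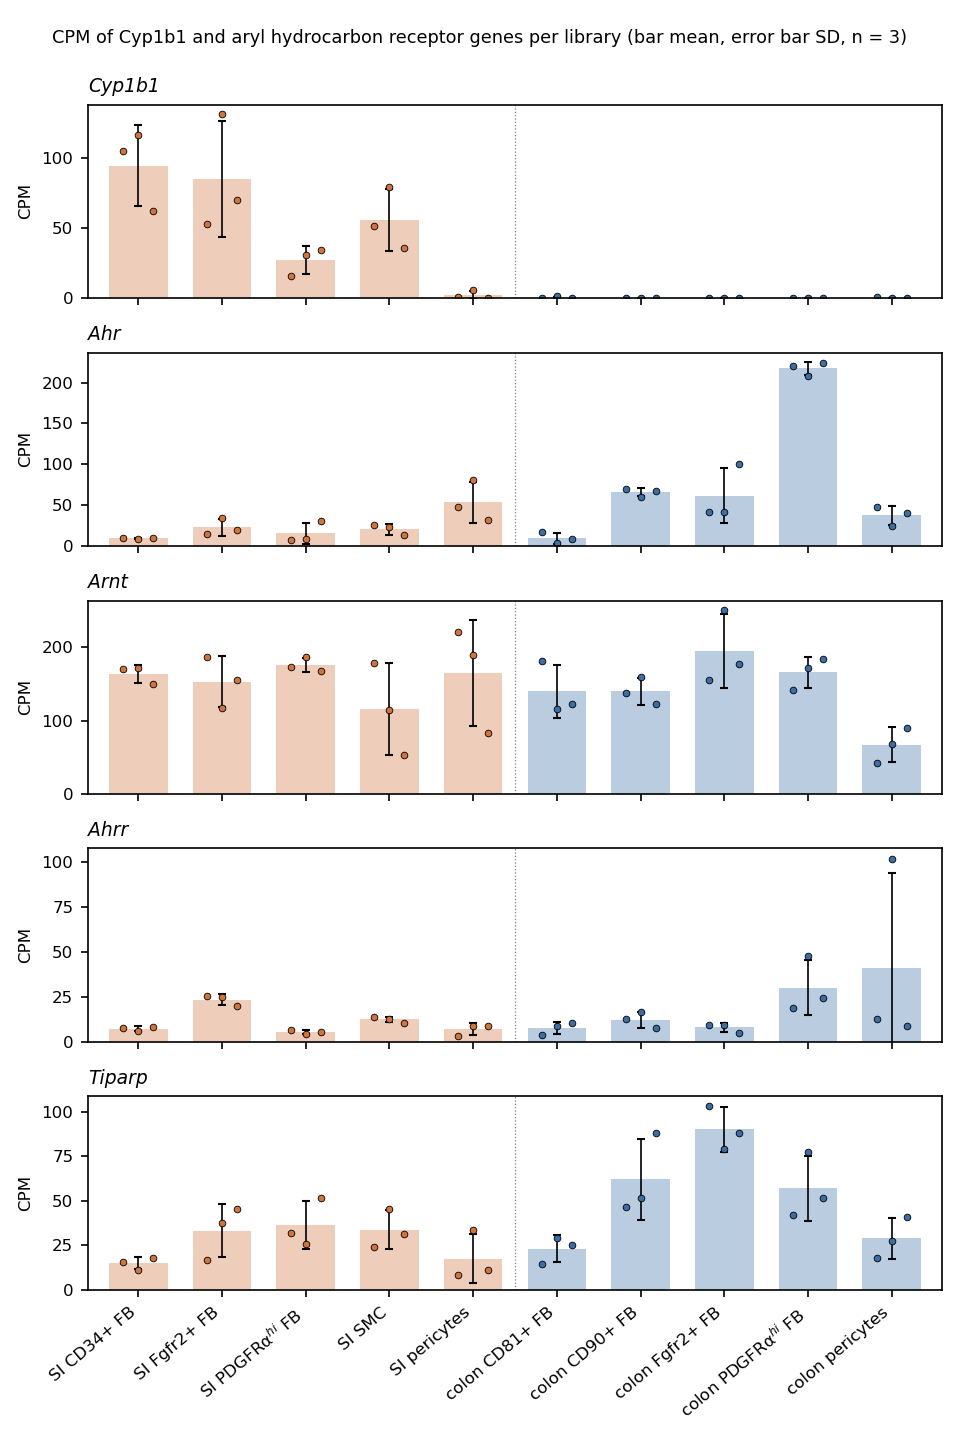
Level in CPM (vertical axis) of *Cyp1b1*, *Ahr*, *Arnt*, *Ahrr* and *Tiparp* in the 10 populations (horizontal axis), with 1 point per library, bars for the mean and error bars for the SD (n = 3). *Cyp1b1* reached 131 CPM in the small intestine and at most 1.17 CPM in the colon, while *Ahr* was highest in colonic PDGFRα hi FB.

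*Cyp1b1* is a single-transcript gene in the annotation used, and 0% of the 31-base stretches of that transcript occur in transcripts of other genes. *Cyp1a1* (chromosome 9, 57687928 to 57703824), the best known target of the receptor, was at 0 in 29 of the 30 libraries. The remaining library, replicate 3 of small intestinal pericytes, held 18 counts (2.18 CPM). With so few counts *Cyp1a1* did not pass the filter of 6 counts in 3 libraries and was not tested. Of its 31-base stretches 5.52% occur in *Cyp1a2*, which had 1 count in a library of colonic CD81+ FB and of CD90+ FB.

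*Ahr* (chromosome 12, 35497974 to 35535038), the receptor itself, ran the other way from *Cyp1b1* in several populations. Colonic PDGFRα hi FB held 220, 208.5 and 223.9 CPM (217.5 ± 8.04), and no library of another population came near, the next highest being a colonic Fgfr2+ FB library at 100.6 CPM. Colonic CD90+ FB had 69.2, 60.5 and 67.7 CPM of *Ahr* (65.8 ± 4.65) and colonic Fgfr2+ FB 42.2, 42.1 and 100.6 CPM (61.6 ± 33.7). Pericytes lay in between, at 48.3, 80.4 and 31.5 CPM in the small intestine (53.4 ± 24.8) and 47.4, 24.8 and 40.4 CPM in the colon (37.5 ± 11.6). The remaining populations were low in *Ahr* and overlapped their neighbours in this order. They were small intestinal Fgfr2+ FB with 15.1, 34.7 and 19.5 CPM (23.1 ± 10.3), SMC with 25.3, 22.9 and 13.1 CPM (20.4 ± 6.49), and small intestinal PDGFRα hi FB with 7.89, 8.89 and 30.3 CPM (15.7 ± 12.6). Lowest were colonic CD81+ FB with 16.9, 3.81 and 8.22 CPM of *Ahr* (9.65 ± 6.67) and small intestinal CD34+ FB with 9.53, 8.52 and 9.94 CPM (9.33 ± 0.731). In small intestinal CD34+ FB, the population highest in *Cyp1b1*, *Ahr* thus had its lowest mean.

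Each comparison used the quasi-likelihood test of edgeR over all genes, with a call at an adjusted p below 0.05 and a log2 fold change beyond 1.5 in either direction. *Ahr* was lower in small intestinal than in colonic PDGFRα hi FB by a log2 difference of -3.78 (SE 0.57, adjusted p = 0.00123), and all 3 small intestinal libraries lay below all 3 colonic ones. Leaving out each of the 12 libraries of the fit in turn gave -4.68 to -3.46, past the threshold each time. Of the 4 pathway genes that could be tested there, 2 were called (*Ahr* and *Ahrr*), against 1.76% of all 15663 genes tested. Part of this level lay on transcripts that code for no full protein, as protein-coding transcripts held 80.4% of the *Ahr* counts in colonic and 94.5% in small intestinal PDGFRα hi FB. With protein-coding transcripts alone, a setting chosen after seeing the data, the *Ahr* difference was -3.52 (adjusted p = 0.00495).

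Between Fgfr2+ FB of the tissues, *Ahr* was again lower in all 3 small intestinal libraries, by -1.40 on the log2 scale (SE 0.52), without passing the threshold (adjusted p = 0.173). Leaving out 1 library at a time gave -1.83 to -0.84, short of the threshold each time. By edgeR 0 of the 4 tested genes were called in that comparison, beside 3.1% of all genes. At an unadjusted p below 0.05 there were 3, and by DESeq2 1 (*Ahrr*). Here and below, percentages of all genes are those called by edgeR. Counts of the 4 genes at an unadjusted p or by DESeq2 have no such share beside them and are not read as results. The difference between subsets in the *Ahr* tissue difference was -2.38 by edgeR (SE 0.74, adjusted p = 0.16), and DESeq2 called it (-2.39, adjusted p = 0.0421). Without replicate 3 of small intestinal PDGFRα hi FB, the library with the highest *Ahr* level of that population, the edgeR value was -3.28 (adjusted p = 0.0172).

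Within the colon *Ahr* separated CD81+ FB from the other FB. It was lower in CD81+ FB than in the mean of the other 3 colonic FB populations by -3.31 (SE 0.49, adjusted p = 0.000546), with each CD81+ FB library below each of the other 9, and -3.99 to -2.93 with 1 library left out. There 2 of the 4 tested genes were called (*Ahr* and *Tiparp*), against 3.72% of all genes. Between colonic Fgfr2+ FB and PDGFRα hi FB the difference was -1.84 (SE 0.50, adjusted p = 0.0822), short of the threshold although each Fgfr2+ FB library lay below each PDGFRα hi FB library. It passed with DESeq2 (adjusted p = 0.00717), with only these populations in the fit (adjusted p = 0.0113), and without replicate 1 (adjusted p = 0.0289) or replicate 2 (adjusted p = 0.0365) of colonic CD81+ FB. By edgeR 0 of 4 genes were called between them, beside 1.51% of all genes. At an unadjusted p below 0.05 there were 2 (*Ahr* and *Ahrr*) and by DESeq2 1, counts with no share of all genes beside them. Against the other colonic FB, CD90+ FB had 0 of 4 called by edgeR and 0 by DESeq2, with 0 at an unadjusted p below 0.05 and 0.116% of all genes called.

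In the small intestine it was the pericytes that stood out in *Ahr*. The difference from the mean of the 3 FB populations was 1.88 (SE 0.49, adjusted p = 0.0146), and 2 of the 3 pericyte libraries lay above all 9 FB libraries. The call was lost without pericyte replicate 2, the highest library (1.45, adjusted p = 0.0894). *Ahr* was the 1 gene called of 4 tested, while 15.2% of all genes were called, so that this count is near the background. In the colon the pericytes differed from the 4 FB populations by -0.50 in *Ahr* (SE 0.39, adjusted p = 0.41), and between pericytes of the tissues by 0.57 (SE 0.81, adjusted p = 0.888).

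*Arnt* (chromosome 3, 95434388 to 95497240), the partner that the receptor needs for DNA binding, was the steadiest of the group. Its means lay between 67.1 ± 24.2 CPM in colonic pericytes and 194.5 ± 50.4 CPM in colonic Fgfr2+ FB, and every population overlapped its neighbours in the order. With TPM in place of CPM the highest mean moved to colonic PDGFRα hi FB, for *Arnt* as for *Ahrr*. None of the 13 comparisons called *Arnt*. The nearest was colonic pericytes, with 42.2, 68.8 and 90.4 CPM, against the 12 colonic FB libraries, with 115.9 to 251.4 CPM and no overlap. That difference, -1.21 (SE 0.29, adjusted p = 0.0059), passed the p threshold and fell short of the fold threshold, and with length-scaled counts it was -1.52 (adjusted p = 0.00772) and called.

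Per kilobase of effective transcript length, which allows genes to be compared, *Arnt* exceeded *Ahr* in 27 of the 30 libraries. The ratio of *Ahr* to *Arnt* in those 27 ran from 0.0275 to 0.941. In colonic PDGFRα hi FB the RNA of *Ahr* was level with or above that of *Arnt*, with ratios of 1.3, 1.01 and 1.02. Mean levels there were 58.7 ± 2.17 CPM per kilobase for *Ahr* and 53.5 ± 6.98 for *Arnt*. The ratios rest on 1 mean effective length per gene, 3703 bases for *Ahr* and 3101 for *Arnt*. In small intestinal CD34+ FB the levels were 52.9 ± 4.04 CPM per kilobase for *Arnt*, 19.2 ± 5.85 for *Cyp1b1*, 5.39 ± 1.197 for *Tiparp*, 2.52 ± 0.197 for *Ahr* and 1.60 ± 0.257 for *Ahrr*.

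Of *Ahr*, *Arnt*, *Arnt2*, *Hsp90aa1*, *Hsp90ab1* and *Ptges3*, *Ahr* alone was called in any comparison. *Hsp90ab1*, the HSP90 chaperone that holds the receptor in its ligand-binding form, had means from 613 CPM in small intestinal Fgfr2+ FB to 881 CPM in colonic PDGFRα hi FB. *Arnt2*, which can replace ARNT, was at 3.15 CPM or less in each population.

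*Ahrr* (chromosome 13, 74211118 to 74292331) encodes the aryl hydrocarbon receptor repressor, which competes with the receptor for ARNT. Its tissue difference had opposite signs in the FB subsets compared. In PDGFRα hi FB it was at 6.44, 4.501 and 5.67 CPM in the small intestine and 18.6, 47.8 and 24.5 CPM in the colon, so that every colonic library was higher. In Fgfr2+ FB it was at 25.6, 24.9 and 20.2 CPM in the small intestine and 9.64, 9.40 and 5.203 CPM in the colon, so that every colonic library was lower. The tested log2 differences were -2.43 (SE 0.57, adjusted p = 0.0347) in PDGFRα hi FB, which was called, and 1.56 (SE 0.55, adjusted p = 0.145) in Fgfr2+ FB, which was not. The difference between these differences was -4.00 (SE 0.79, adjusted p = 0.0156), and it made *Ahrr* the 1 gene of 4 called by edgeR for that interaction, against 1.28% of all genes. DESeq2 called *Ahr* there too (adjusted p = 0.0421).

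The PDGFRα hi FB call for *Ahrr* was lost in 6 of 12 fits with a library left out. These were the fits without colonic Fgfr2+ FB replicate 2 (adjusted p = 0.0501), colonic PDGFRα hi FB replicate 2 (0.209) or 3 (0.0859), and small intestinal PDGFRα hi FB replicate 1 (0.123), 2 (0.18) or 3 (0.106), with log2 differences from -2.57 to -1.94. It was also lost without the count filter (adjusted p = 0.0512) and with all 30 libraries in 1 model (0.178). The interaction was lost without replicate 2 of colonic PDGFRα hi FB (-3.51, adjusted p = 0.0659), without replicate 2 of small intestinal PDGFRα hi FB (-3.86, adjusted p = 0.0579), and with all 30 libraries in 1 model (-3.93, adjusted p = 0.0913).

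In other populations *Ahrr* was at 12.6, 102.1 and 9.14 CPM in colonic pericytes (41.3 ± 52.7), where replicate 2 stood apart. It was at 13.8, 13.04 and 10.8 CPM in SMC, 12.6, 16.5 and 7.48 CPM in colonic CD90+ FB, and 3.87, 9.10 and 10.4 CPM in colonic CD81+ FB. The small intestinal CD34+ FB held 7.55, 6.17 and 8.55 CPM and the pericytes of that tissue 3.28, 8.999 and 8.97 CPM. Small intestinal Fgfr2+ FB exceeded SMC, next below them in the order, without overlap. *Ahrr* was called in colonic pericytes against the colonic FB (1.78, SE 0.57, adjusted p = 0.0359), as 1 of 4 genes beside 16.6% of all genes. Only replicate 2 lay above all 12 FB libraries, and without it the sign turned (-0.16, adjusted p = 0.899). The call was also lost, with log2 differences of 1.71 to 1.78, without replicate 1 (adjusted p = 0.0539) or 3 (0.0612) of colonic CD90+ FB, replicate 3 of colonic Fgfr2+ FB (0.0568), and replicate 1 (0.0615) or 3 (0.0604) of colonic PDGFRα hi FB. With upper-quartile scaling (adjusted p = 0.067) or the replicate number as a block (1.26, adjusted p = 0.154) it was lost as well. Within the small intestine, *Ahrr* was higher in Fgfr2+ FB than in PDGFRα hi FB in 3 of 3 libraries, by 2.04 (SE 0.68, adjusted p = 0.178). In that comparison edgeR called 0 of 4 genes and 2.24% of all genes. At an unadjusted p below 0.05 there was 1, and DESeq2 called 1 (*Ahrr*), counts with no share of all genes beside them.

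Most *Ahrr* counts do not come from the transcript that encodes the repressor. Summed over the 30 libraries, 70.3% lay on the retained-intron transcript Ahrr-205 and 28.2% on the protein-coding Ahrr-201. Replicate 2 of colonic pericytes held 816 of the 1356 *Ahrr* counts on protein-coding transcripts, and without it their share fell from 29.4% to 14.3%. Ahrr-205 has 5 exons against 11 in Ahrr-201, and its last exon (chromosome 13, 74216067 to 74220737) accounts for 4671 of its 5099 bases. Of its bases 87.7% lie in no other annotated transcript. On protein-coding transcripts alone, colonic PDGFRα hi FB held 63, 46 and 76 counts (8.03 ± 2.16 CPM) and small intestinal PDGFRα hi FB 0 in all 3 libraries. Those small intestinal libraries held 49, 83 and 50 *Ahrr* counts over all transcripts. Their 0 thus depends on how counts were divided among transcripts, and no fold bound is given. The other 2 colonic pericyte libraries held 17 and 1 coding counts. In small intestinal Fgfr2+ FB the coding counts were 209, 21 and 1, so that their even totals of 20.2 to 25.6 CPM rested on different transcripts. Among the Fgfr2+ and PDGFRα hi FB libraries, coding *Ahrr* reached 6 counts only in colonic PDGFRα hi FB and in replicates 1 and 2 of small intestinal Fgfr2+ FB. It thus passed the count filter only through the groups where it is high. The tests on coding *Ahrr*, a setting chosen after seeing the data, are therefore not read as results.

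**Figure D2:**
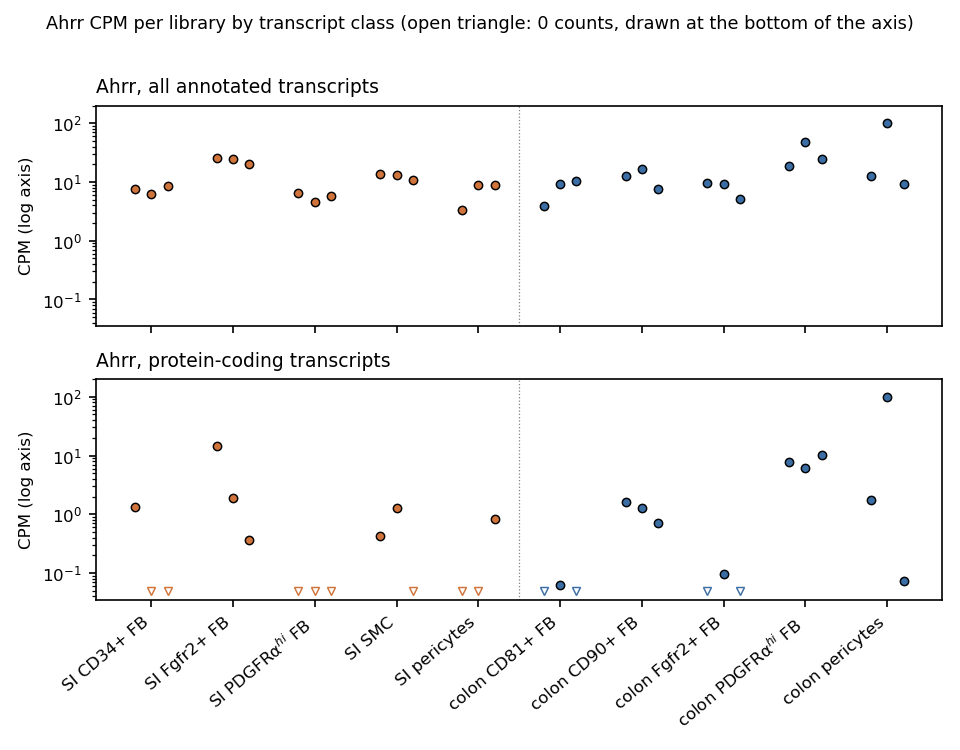
Level of *Ahrr* in CPM (vertical log axis) in each library of the 10 populations (horizontal axis), summed over all annotated transcripts (top) or protein-coding transcripts alone (bottom). Each point is a library, and open triangles at the bottom of the axis mark 0 counts, as in all 3 small intestinal PDGFRα hi FB libraries.

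*Tiparp* (chromosome 3, 65528410 to 65555518) encodes a mono-ADP-ribosyl transferase that modifies the receptor and dampens its activity. Its mean was highest in colonic Fgfr2+ FB, with 103.5, 78.9 and 88.0 CPM (90.2 ± 12.4), followed by colonic CD90+ FB with 46.6, 51.6 and 87.9 CPM (62.0 ± 22.5) and colonic PDGFRα hi FB with 41.9, 77.3 and 51.6 CPM (57.0 ± 18.3). Colonic CD81+ FB held 14.7, 29.4 and 25.4 CPM (23.2 ± 7.58). The CD81+ FB libraries were thus all below the other colonic FB, while in the whole order of 10 populations every neighbouring pair overlapped. The 5 small intestinal means lay between 14.9 ± 3.31 CPM in CD34+ FB and 36.3 ± 13.4 CPM in PDGFRα hi FB, and colonic pericytes were at 28.9 ± 11.6 CPM.

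In colonic CD81+ FB *Tiparp* was lower than in the other FB by -1.54 (SE 0.40, adjusted p = 0.0335), a call at the edge of both thresholds. It was lost in 10 of 15 fits with a library left out, where log2 differences ran from -1.76 to -1.31. The libraries were replicates 1 (adjusted p = 0.134), 2 (0.0535) and 3 (0.0706) of CD81+ FB, 2 (0.0524) and 3 (0.0683) of CD90+ FB, 1 (0.056), 2 (0.0524) and 3 (0.0534) of Fgfr2+ FB, and 2 (0.0616) and 3 (0.0552) of PDGFRα hi FB. With all 30 libraries in 1 model the *Tiparp* call was lost as well (0.06). Between the tissues *Tiparp* was lower in all 3 small intestinal Fgfr2+ FB libraries (16.6, 37.3 and 45.6 CPM) than in the colonic ones, by -1.44 (SE 0.44, adjusted p = 0.0932). In PDGFRα hi FB the tissues overlapped (-0.63, SE 0.43, adjusted p = 0.842). Among the 11 mono-ADP-ribosyl transferase genes listed, *Tiparp* was the 1 called in CD81+ FB, beside 3.72% of all genes.

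Small intestinal CD34+ FB were set against the mean of colonic CD81+ FB and CD90+ FB, since they mix 2 subsets. Here *Tiparp* differed by -1.39 (SE 0.37, adjusted p = 0.112) and *Ahr* by -1.46 (SE 0.44, adjusted p = 0.16), with *Ahr* passing the threshold without colonic CD81+ FB replicate 2 (-1.65, adjusted p = 0.0282). The colonic groups differed between themselves in *Ahr*, and the small intestinal libraries lay within the range of CD81+ FB. By edgeR 0 of 4 genes were called, beside 1.2% of all genes. At an unadjusted p below 0.05 there were 2, a count with no share of all genes beside it, and by DESeq2 0.

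The remaining comparisons called 0 of 4 genes by edgeR. Between pericytes of the tissues 0% of 13361 genes were called, with 1090 genes at an unadjusted p below 0.05 and 347 called by DESeq2, and 0 of the 4 genes passed either of these. *Ahrr* differed there by -2.51 (SE 1.25, adjusted p = 0.655), with 3 of 3 colonic libraries higher, and by -0.57 (adjusted p = 0.959) without replicate 2 of colonic pericytes. With all 30 libraries in 1 edgeR model this difference was called (-2.53, adjusted p = 0.0445). Between SMC and the small intestinal FB 4.69% of all genes were called, and between CD34+ FB and the other small intestinal FB 2.51%. In neither of these was any of the 4 genes below an unadjusted p of 0.05 or called by DESeq2. The lowest adjusted p among them was that of *Tiparp* in CD34+ FB (-1.2, SE 0.58, adjusted p = 0.515).

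The list of 12 receptor targets was read without *Cyp1b1*, which left 11 genes. Between the tissues 1 of 7 tested was called in PDGFRα hi FB (*Ahrr*), beside 1.76% of all genes, and by edgeR 0 of 7 in Fgfr2+ FB (3.1%), 0 of 4 in pericytes (0%) and 0 of 8 in CD34+ FB (1.2%). In PDGFRα hi FB the 7 tested targets had a median log2 difference of -2.43, the value of *Ahrr* itself, or -0.70 with a gene at 0 on one side set to its bound, against 0.00 over all genes. The target median was -0.05 in Fgfr2+ FB, -0.22 in pericytes and -0.01 in CD34+ FB (0.02, 0.01 and -0.08 over all genes). *Ugt1a6a*, a glucuronosyl transferase, followed the subset within each tissue. In the small intestine it held 72.8, 75.2 and 59.1 CPM in CD34+ FB, 12.2, 11.2 and 29.0 CPM in Fgfr2+ FB and 0, 0.217 and 0.340 CPM in PDGFRα hi FB. Its level was higher in Fgfr2+ FB than in PDGFRα hi FB (6.33, SE 0.99, adjusted p = 0.00241) and in CD34+ FB than in these (5.197, SE 0.69, adjusted p = 0.000507), and lower in pericytes than in FB (-8.91, SE 1.32, adjusted p = 0.000287), where the call was lost with protein-coding transcripts alone (-7.40, adjusted p = 1). The colon had a similar order, with 67.3 CPM in CD81+ FB, 61.0 CPM in CD90+ FB, 42.0 CPM in Fgfr2+ FB and 1.62 CPM in PDGFRα hi FB. There *Ugt1a6a* was lower in pericytes than in FB (-7.23, SE 1.31, adjusted p = 0.000687), and its call between Fgfr2+ FB and PDGFRα hi FB (4.68, SE 1.13, adjusted p = 0.0443) was lost in 9 of 15 fits with a library left out (adjusted p up to 0.236). *Ugt1a6a* shares 53.0% of its 31-base stretches with other genes of its cluster, so that its reads can be divided among them and its level is uncertain.

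Another target, *Cyp2s1*, a P450 gene, was at 54.7, 42.4 and 15.9 CPM in the small intestine and 48.1, 27.4 and 31.4 CPM in the colon in PDGFRα hi FB, and its mean was 4.86 CPM or less in every other population. In the colon it was lower in Fgfr2+ FB than in PDGFRα hi FB by -4.86 (SE 1.00, adjusted p = 0.0152), a call lost without any 1 of the Fgfr2+ FB libraries or without replicate 1 of PDGFRα hi FB (adjusted p up to 0.101) and with length-scaled counts (0.193). In the small intestine the same difference was not called (-3.96, SE 1.14, adjusted p = 0.0935). In colonic pericytes *Cyp2s1* was lower than in FB (-3.15, SE 0.87, adjusted p = 0.0155), a call lost without their replicate 1 or 3 (adjusted p up to 0.0546). *Nqo1*, a quinone reductase, stayed at 6.29 CPM or less in each mean, *Gsta1* had 0 counts in all libraries (uncertain, as 92.9% of its 31-base stretches occur in other genes), and *Aldh3a1* had counts in the colon alone, with 15.7 CPM in replicate 1 of CD81+ FB, 0 in the other 2, and 2.05 to 3.198 CPM in CD90+ FB. *Nfe2l2*, which encodes the antioxidant regulator NRF2, had means of 149 to 284 CPM and was not called in any comparison.

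**Figure D3:**
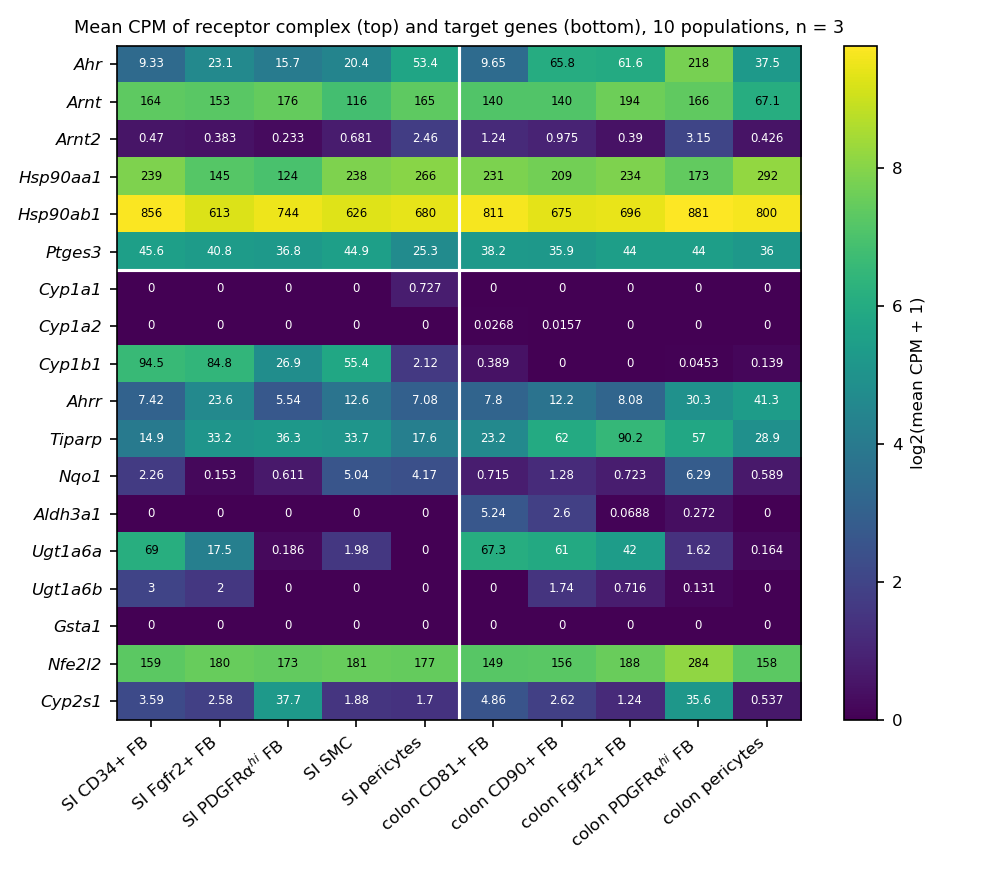
Mean CPM (n = 3, printed in each cell, colour on a log2 scale of CPM plus 1) of 6 receptor complex genes (top) and 12 receptor target genes (bottom) in the 10 populations. *Ahr* was highest in colonic PDGFRα hi FB, *Cyp1b1* in small intestinal CD34+ FB, and *Cyp2s1* in PDGFRα hi FB of both tissues.

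*Epas1*, a hypoxia-inducible factor of the same protein family that also pairs with ARNT, was higher in pericytes than in FB in the small intestine (2.61, SE 0.30, adjusted p = 1.16e-05) and in the colon (3.69, SE 0.38, adjusted p = 1.76e-06). Its levels were 3981, 4302 and 4220 CPM in small intestinal and 4122, 6562 and 4658 CPM in colonic pericytes. *Epas1* was lower in CD34+ FB than in the other small intestinal FB (-2.03, adjusted p = 0.00578), which was lost without CD34+ FB replicate 1 (adjusted p = 0.0632), and in colonic CD81+ FB (-2.37, adjusted p = 0.0146), which was lost without their replicate 3 (adjusted p = 0.0629).

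*Npas2*, a clock factor of the family, was lower in small intestinal than in colonic Fgfr2+ FB (6.70, 22.9 and 11.4 against 162.2, 68.4 and 98.4 CPM) by -2.98 (SE 0.50, adjusted p = 0.0025), the 1 call among the 12 genes of this list tested there, beside 3.1% of all genes, and lower in colonic pericytes than in FB (-1.95, SE 0.45, adjusted p = 0.00461). *Npas4*, an activity-induced factor, was higher in SMC (6.198, adjusted p = 0.00585), which was lost without SMC replicate 1 (adjusted p = 0.0532). In colonic pericytes *Npas4* was at 44.9, 0.982 and 5.194 CPM. It passed the count filter only through these libraries and failed it without any 1 of them, so that its call there is not read as a result. *Hif3a* was higher in colonic pericytes (1.64, adjusted p = 0.0309). This call was lost without their replicate 3, CD90+ FB replicate 2, Fgfr2+ FB replicate 2 or PDGFRα hi FB replicate 3 (log2 difference down to 0.83, adjusted p up to 0.354). With all 30 libraries in 1 model it was lost as well (0.0928). *Arntl2*, a partner in the clock, was higher in small intestinal pericytes (1.598, adjusted p = 0.00225), and fell below the fold threshold without their replicate 1 or with upper-quartile scaling (1.496). With protein-coding transcripts alone the *Arntl2* call was lost too (adjusted p = 0.0829), though the log2 difference was larger (3.44).

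Among the genes that supply electrons to P450 enzymes, *Cyb5a* was lower in pericytes than in FB in the small intestine (-2.90, SE 0.49, adjusted p = 0.000588) and in the colon (-2.20, SE 0.54, adjusted p = 0.00775). *Por*, the main electron donor, was not called in any comparison and had its highest mean, 124.7 CPM, in CD34+ FB of the small intestine. Of 99 other P450 genes 33 were tested between the tissues in FB, where 0 were called in PDGFRα hi FB by edgeR, beside 1.76% of all genes, and 1, *Cyp51*, in Fgfr2+ FB, beside 3.1%. The P450 calls in pericytes numbered 8 of 35 in the small intestine, 5 higher and 3 lower, beside 15.2% of all genes, and 6 of 34 in the colon, 2 higher and 4 lower, beside 16.6%. *Cyp7b1*, an oxysterol hydroxylase, was higher in pericytes of both tissues (3.26, SE 0.49, adjusted p = 0.000183 in the small intestine and 3.43, SE 0.83, adjusted p = 0.00667 in the colon). *Cyp4b1*, a fatty acid hydroxylase, was higher in both as well (7.298, adjusted p = 0.000181, and 8.29, adjusted p = 8.32e-05). In small intestinal pericytes *Cyp2j6*, an arachidonic acid epoxygenase, was lower (-3.06, adjusted p = 0.0196), and *Cyp4a10*, a fatty acid hydroxylase, was higher (4.12, adjusted p = 0.0328, lost in 7 of 15 fits, with adjusted p up to 0.217). In colonic pericytes *Cyp2c23*, another epoxygenase, was lower (-9.28, adjusted p = 0.000798), and so was its relative *Cyp2j9* (-3.37, adjusted p = 0.0343), which was lost without pericyte replicate 1 or 2 or CD90+ FB replicate 2 (adjusted p up to 0.0958). *Cyp2c23* was also lower in colonic CD81+ FB than in the other FB (-4.498, adjusted p = 0.028, lost in 9 of 15 fits and with all 30 libraries in 1 model). In SMC *Cyp7a1*, a bile acid gene, was called (4.11, adjusted p = 0.0385). This call was lost in 9 of 15 fits, with log2 differences down to 1.11 and adjusted p up to 0.744, reached without SMC replicate 3. *Cyp7b1* was called in SMC as well (2.27, adjusted p = 0.00989, against 0.1 without SMC replicate 3 and 0.0693 with all 30 libraries in 1 model). For *Cyp51*, a gene of sterol synthesis, the tissue difference in Fgfr2+ FB was -2.06 (adjusted p = 0.0343) and was lost in 5 of 12 fits (adjusted p up to 0.107). The *Cyp51* call was also lost with length-scaled counts (adjusted p = 0.128), protein-coding transcripts (0.0506), only the populations compared (0.0697) or all 30 libraries in 1 model (0.139).

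Genes of tryptophan breakdown, a source of ligands, gave 1 call, *Ido2* in colonic pericytes, at 5.03 (adjusted p = 0.00492), as 1 of 9 tested there beside 16.6% of all genes. It rested on replicate 3 (33.4 CPM against 0.208 and 0 CPM) and was -1.54 (adjusted p = 0.574) without it, and -1.85 with protein-coding transcripts alone. Of the 80 calls for list genes other than the 6, 45 were kept in each fit with a library left out that gave a value.

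Genes of the immediate early and heat shock response, which mark cell stress during isolation among other things, moved along with several of these comparisons. Their 10 genes summed to 798, 674 and 755 CPM in small intestinal Fgfr2+ FB and 3629, 7430 and 7506 CPM in colonic Fgfr2+ FB, where 7 of 10 were called lower in the small intestine, beside 3.1% of all genes. Among them were *Atf3* by -4.29 (adjusted p = 0.0324, lost in 4 of 12 fits and with length-scaled counts), *Fos* by -4.21 (adjusted p = 0.00126), *Fosb* by -4.196 (adjusted p = 0.0012) and *Dusp1* by -3.98 (adjusted p = 0.000156). In PDGFRα hi FB the sums were 1227, 658 and 1096 CPM in the small intestine and 1368, 1499 and 2200 CPM in the colon, with 0 of 10 called by edgeR beside 1.76% of all genes. The difference between these subsets was called for *Dusp1* (4.07, adjusted p = 0.00251) and *Egr1* (2.16, adjusted p = 0.0169, lost in 5 of 12 fits), 2 of 10 beside 1.28%. In small intestinal pericytes 9 of 10 were higher than in FB, *Fosb* (4.58), *Fos* (3.79), *Atf3* (3.77) and *Jun* (3.299) the most, beside 15.2% of all genes, and in colonic pericytes 4 of 10, *Atf3* (2.69), *Fosb* (2.22), *Fos* (1.79) and *Junb* (1.70), beside 16.6%.

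Within the small intestine 6 of 10 of these genes, beside 2.51% of all genes, were higher in CD34+ FB than in the other FB, by up to 3.13 for *Atf3* (lost in 7 of 15 fits and with length-scaled counts), 2.85 for *Fos*, 2.51 for *Egr1* and 2.42 for *Fosb* (lost in 8 of 15 fits). *Dusp1* was lower in Fgfr2+ FB than in PDGFRα hi FB (-2.69, lost in 4 of 15 fits and with protein-coding transcripts), 1 of 10 beside 2.24%. Lower in SMC, 2 of 10 beside 4.69%, were *Atf3* (-3.53, lost in 8 of 15 fits and with length-scaled counts or protein-coding transcripts) and *Egr1* (-1.63, lost without SMC replicate 3). In the colon 6 of 10 were higher in CD81+ FB than in the other FB, beside 3.72%, by up to 2.72 for *Atf3*, 1.94 for *Ier2* (lost in 5 of 15 fits and with all 30 libraries in 1 model), 1.85 for *Fosb* and 1.84 for *Fos*. In colonic Fgfr2+ FB 6 of the 10, beside 1.51% and with 4 of them shared with CD81+ FB (*Atf3*, *Egr1*, *Fos* and *Fosb*), were higher than in PDGFRα hi FB, by up to 3.63 for *Atf3*, 2.198 for *Junb* (lost in 3 of 15 fits, with length-scaled counts and with all 30 libraries in 1 model), 2.12 for *Egr1* and 1.77 for *Fos* (lost in 4 of 15 fits and with all 30 libraries in 1 model). The part of this response in the levels of *Ahr*, *Ahrr* and *Tiparp* was not tested.

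Markers of other cell types were summed for the same libraries. Of 10 epithelial genes 1 lay above the floor in colonic PDGFRα hi FB, with sums of 10.0, 7.35 and 124.5 CPM, *Muc2* the most abundant, and *Epcam*, *Krt8*, *Krt18* and *Krt20* at 0. In colonic pericytes they summed to 1.56, 109.4 and 28.6 CPM, with *Muc2* again the most abundant and *Epcam*, *Krt18*, *Krt20* and *Fabp2* at 0. The high sum was that of replicate 2, the library with 102.1 CPM of *Ahrr*, and its part in that level was not tested. In SMC the sums were 14.5, 16.4 and 78.8 CPM, 3 of 10 above the floor, with *Muc2* the most abundant and *Epcam*, *Krt8* and *Krt18* at 0. In small intestinal PDGFRα hi FB the sums were 4.73, 4.01 and 1.70 CPM, with *Lgr5* the most abundant. Small intestinal pericytes had 4.92, 37.6 and 6.3 CPM, with *Vil1* the most abundant. Their replicate 2, on which the *Ahr* call in pericytes rested, also had the highest sum of immediate early and heat shock genes (5937, 14480 and 7026 CPM), and the part of either in that call was not tested.

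Endothelial genes summed to 398, 364 and 332 CPM in colonic CD81+ FB, with 4 of 8 above the floor, and *Tek* accounted for 309 CPM of the mean. In the other colonic FB the sums lay between 55.7 and 111.3 CPM, and *Cdh5* was at 0.0883 CPM in CD81+ FB. Small intestinal pericytes had endothelial sums of 341.7, 205.6 and 188.9 CPM, 5 of 8 genes above the floor and *Tek* the most abundant, against 52.6 to 108.7 CPM in small intestinal FB. In SMC the endothelial sums were 65.0, 66.4 and 226.4 CPM, with *Pecam1* the most abundant, so that replicate 3, without which the *Cyp7a1* and *Cyp7b1* calls in SMC were lost, was the highest in both epithelial and endothelial genes. Immune genes summed to 424, 96.4 and 96.8 CPM in small intestinal pericytes, with *Cd68* the most abundant and *Itgax* at 0, and to 12.6 to 72.0 CPM in small intestinal FB. In colonic pericytes they summed to 98.3, 123.4 and 62.0 CPM, *Cd68* again the most abundant, against 16.4 to 41.1 CPM in colonic FB. Genes of interstitial cells of Cajal summed to 1106, 563 and 731 CPM in small intestinal and 782, 878 and 699 CPM in colonic pericytes, most of it *Ano1*, while *Kit* was at 2.88 and 0.0409 CPM. In PDGFRα hi FB their sums were 467, 410 and 498 CPM in the small intestine, where *Etv1* held 438 CPM of the mean, and 230, 299 and 238 CPM in the colon. *Ano1* was at 0, 2.22 and 0.113 CPM in small intestinal and 78.3, 79.2 and 81.5 CPM in colonic PDGFRα hi FB. Glial sums were at most 54.3 CPM, reached in small intestinal pericytes with *L1cam* the most abundant there, and mesothelial sums at most 24.4 CPM, with *Krt7* or *Wt1* the most abundant. The part of any of these cells in the levels described was not tested.

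*Rgs5*, a pericyte gene, had means of 30720 CPM in pericytes of the small intestine and 32950 CPM in those of the colon. Among FB its mean was highest, 3779 CPM, in the CD34+ FB of the small intestine. In small intestinal pericytes *Cyp1b1* was at 2.12 CPM. *Thy1*, which encodes CD90, was at 253.5, 175.1 and 160.1 CPM in colonic CD90+ FB. In the colonic FB sorted as CD90- and CD34+ it was not absent, with 124.4, 114.5 and 59.4 CPM in CD81+ FB and 29.5, 23.8 and 27.1 CPM in Fgfr2+ FB.

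Over the 10 population means of log2 CPM, which share libraries and depth between genes, *Cyp1b1* had a Pearson correlation of -0.61 with *Ahr*, -0.46 with *Tiparp*, -0.13 with *Ahrr* and 0.12 with *Arnt*. Between *Ahr* and *Tiparp* it was 0.57 and between *Ahr* and *Ahrr* 0.52 (n = 10 populations). Among 14306 genes with at least 5 CPM in 1 population, those most like *Cyp1b1* included *Gm6776* (0.953), *Hoxb7* (0.932), *Hoxc5* (0.914), *Rbm46* (0.902), *H2-Q7* (0.899), *Hoxc8* (0.895), *Pard6b* (0.892), *Hmcn1* (0.891) and *Ntn3* (0.886). *Gm6776* shares 65.8% of its 31-base stretches with other genes and is uncertain. Closest to *Ahr* were *Yes1* (0.866), *Lef1* (0.859), *Grwd1* (0.856), *Rps24* (0.834) and *Milr1* (0.822). For *Ahrr* they were *Tex14* (0.89), *Paqr5* (0.86), *Neil3* (0.858), *Dhx9* (0.842) and *Nip7* (0.824), and for *Tiparp* they were *Wfdc13* (0.948), *Chfr* (0.871), *Hnrnpa3* (0.855), *Nt5dc1* (0.854) and *Dlat* (0.852).

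The 6 genes lie on chromosomes 3, 9, 12, 13 and 17, with *Arnt* and *Tiparp* both on chromosome 3. *Ahr* overlaps the opposite-strand *Gm48236* over 127 exon bases, and *Tiparp* overlaps the opposite-strand *4931440P22Rik* over 223, which matters since the libraries do not keep the strand. From RefSeq (GRCm38.p6), promoters of 300 bases, from 250 before to 50 after the start, matched 5 of the 6 genes, and *Ahr* had none. They were searched on both strands for GCGTG, which reads CACGC from the opposite strand and is the core of the element bound by the receptor with ARNT. All 5 held at least 1 core, as did 32.4% of the 32851 promoters in the table. The GC content of the 5 was 54.0% to 73.7%, against a median of 52.7% over all promoters. The shares of promoters given here are not matched for it. *Ahrr* held 3 (3.9% of all promoters hold that many), starting 107, 82 and 27 bases before the start, *Cyp1b1* 1 on the opposite strand at 76, *Cyp1a1* 1 at 54, *Arnt* 1 at 29 and *Tiparp* 1 on the opposite strand at 170. A match is a description of letters, not of binding. Printed below are *Cyp1b1* at chr17:79715012-79715311 (minus strand), *Cyp1a1* at chr9:57697363-57697662 (plus strand) and *Ahrr* at chr13:74292282-74292581 (minus strand), each 5′ to 3′ with cores in capitals.
Cyp1b1: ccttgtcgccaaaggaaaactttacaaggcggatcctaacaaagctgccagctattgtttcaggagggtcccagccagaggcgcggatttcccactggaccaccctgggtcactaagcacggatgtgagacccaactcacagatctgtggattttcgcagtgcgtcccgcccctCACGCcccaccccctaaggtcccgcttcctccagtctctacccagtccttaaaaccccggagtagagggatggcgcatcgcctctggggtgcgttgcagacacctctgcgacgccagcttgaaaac
Cyp1a1: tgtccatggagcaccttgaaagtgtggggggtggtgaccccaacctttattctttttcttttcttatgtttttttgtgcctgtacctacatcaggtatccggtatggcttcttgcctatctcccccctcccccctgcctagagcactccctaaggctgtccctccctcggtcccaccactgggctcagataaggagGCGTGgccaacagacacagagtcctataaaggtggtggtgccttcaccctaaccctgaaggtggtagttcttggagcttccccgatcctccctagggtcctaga
Ahrr: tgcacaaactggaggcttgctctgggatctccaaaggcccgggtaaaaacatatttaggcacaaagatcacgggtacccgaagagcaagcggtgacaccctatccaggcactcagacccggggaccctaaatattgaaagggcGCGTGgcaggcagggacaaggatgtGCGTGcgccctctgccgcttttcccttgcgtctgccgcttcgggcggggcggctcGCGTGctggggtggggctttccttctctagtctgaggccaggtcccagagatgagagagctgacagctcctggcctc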

How the data were processed

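Bulk RNA-seq of 30 libraries from 10 sorted populations was used, grouped by the deposited labels. The authors trimmed reads (Trim Galore 0.4.0), checked them (FastQC 0.11.2) and quantified transcripts with kallisto 0.42.5. The deposited expected counts (estimated counts per transcript, not normalized) were used, and the authors' TPM and effective transcript lengths served alternatives and levels per kilobase. Of 98492 transcripts, 97116 matched GENCODE M21 and were summed to 32316 symbols and rounded. Between 97.8% and 99.2% of a library's counts were on matched genes. The transcript set behind the files is not named.

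Genes with at least 6 counts in 3 libraries of a fit were tested with edgeR 4.0.16 (R 4.3.3, TMM, quasi-likelihood), with Benjamini-Hochberg adjustment over all genes tested. A call needed an adjusted p below 0.05 together with a log2 fold change beyond 1.5 either way. The SE is the fold change over the root of F. Fits held the 12 Fgfr2+ and PDGFRα hi FB libraries, 6 pericyte libraries, 9 CD34+, CD81+ and CD90+ FB libraries, or the 15 libraries of a tissue, so comparisons share libraries. An exact permutation test of 3 libraries against 3 cannot go below p = 0.1. Log2 CPM used a prior count of 2. The alternatives were DESeq2 1.42.0, RLE and upper-quartile scaling, other filters, fold thresholds and sets of libraries, length-scaled TPM, a replicate block, protein-coding transcripts alone, and each library left out. The tests were tried on simulated data.

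The 6 genes and the lists were chosen with earlier results of these data known. The rule for named genes, fixed at the start, took the 6, the called genes of each list and comparison up to the 4 with the largest absolute log2 fold change, the most abundant marker of each cell type list, and the genes most correlated with a member (10 for *Cyp1b1*, 5 each for *Ahr*, *Ahrr* and *Tiparp*). It was not followed for the cell type and sorting marker lists, whose calls are not named, since no alternatives were run for them. List genes named without a call, such as *Por* and *Nqo1*, were chosen after their values were seen. Some genes that the rule takes are not named. Genes sharing at least 50% of 31-base stretches with others are described as uncertain.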

Additional observations from a re-analysis of the deposited data

Results flagged for a closer look

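Contrasts of tissue and population gave opposite directions for *Ahrr* in a pair of cases. The difference between small intestine and colon in PDGFRα hi FB minus that in Fgfr2+ FB was -4.00 on the log2 scale by edgeR (adjusted p = 0.0156), as every colonic PDGFRα hi FB library was higher than its small intestinal counterparts and every colonic Fgfr2+ FB library was lower. The call was lost without replicate 2 of colonic (-3.51, adjusted p = 0.0659) or of small intestinal PDGFRα hi FB (-3.86, adjusted p = 0.0579) and with all 30 libraries in 1 model (-3.93, adjusted p = 0.0913). In mean log2 CPM, the tissue difference in Fgfr2+ FB minus that in pericytes was 3.39, since colonic pericytes (9.14 to 102.1 CPM) lay above small intestinal pericytes (3.28 to 8.999 CPM). This second difference was not tested, and it includes the colonic pericyte library with 816 coding *Ahrr* counts.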

How the results depend on the processing

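Of 624 values for single tested genes under other settings, 608 kept their side of the threshold, 9 passed it newly and 7 no longer did. The 624 include the tests on coding *Ahrr*, which are not read as results. Of 684 with 1 library left out, 655 kept their side, 4 passed newly, 24 no longer did and 1 turned. A turn of direction was counted only for values past the threshold in either fit. Short of it some values changed sign, such as *Arnt* in small intestinal pericytes against FB (-0.23 to 0.39 with a library left out). In the settings below the number of called genes of the 5 differed from that reported, and the cause was not tested unless named. With the replicate block it was 1 for PDGFRα hi FB between tissues (*Ahrr* adjusted p = 0.0716) and 0 for colonic pericytes (0.154), where replicate numbers of one fit had mean correlations of 0.000271 to 0.0153. With DESeq2 it was 1 for Fgfr2+ FB between tissues (*Ahrr*, 0.0202), 2 for the interaction (*Ahr* added, 0.0421), 1 for small intestinal Fgfr2+ against PDGFRα hi FB (*Ahrr*, 5.7e-05) and 1 for the colonic pair (*Ahr*, 0.00717). Without the count filter it was 1 for PDGFRα hi FB between tissues (*Ahrr*, 0.0512) and 2 for small intestinal pericytes, as *Cyp1a1* was then tested. For colonic pericytes it was 0 with upper-quartile scaling and 2, with *Arnt*, with length-scaled counts, no fold threshold or a fold threshold of 1. With only the populations compared it was 1 for colonic Fgfr2+ against PDGFRα hi FB. With all 30 libraries in 1 model it was 1 for PDGFRα hi FB between tissues (*Ahrr*, 0.178), 0 for the interaction (0.0913), 1 for pericytes between tissues (*Ahrr*, 0.0445) and 1 for colonic CD81+ FB (*Tiparp* lost, 0.06). Coding transcripts alone changed none of these numbers. For PDGFRα hi FB between tissues and for the interaction, however, they then count coding *Ahrr*, whose tests are not read as results. Their sameness in these comparisons is therefore not read either.

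With a library left out the number ranged from 1 to 2 for PDGFRα hi FB between tissues, 0 to 2 for the interaction, 0 to 1 for CD34+ FB, 0 to 1 for small intestinal pericytes, 0 to 1 for colonic pericytes, 0 to 1 for colonic Fgfr2+ against PDGFRα hi FB and 1 to 2 for colonic CD81+ FB, and was 0 throughout in the other 6. *Ahrr* in colonic pericytes ranged from -0.16 without their replicate 2, where it turned, to 2.26 without replicate 3. *Ido2* in colonic pericytes ranged from -1.54 without their replicate 3, where it turned, to 5.61 without replicate 2, and turned to -1.85 with coding transcripts alone. Of the list genes' calls, 38 of 955 under other settings and 142 of 1164 with a library left out were lost. With the replicate block the calls lost were those of *Hif3a*, *Cyp2j9* and *Ido2* in colonic pericytes, *Cyp4a10*, *Cyp2u1* and *Cyp4a31* in small intestinal pericytes, *Cyp7a1* and *Atf3* in SMC, and *Fosb* in CD34+ FB. No value came from the filter of 10 counts for *Cyp4a10*, *Cyp7a1*, *Ido2* and *Npas4* (in colonic pericytes), from DESeq2 for *Ido2*, or for *Npas4* without each colonic pericyte replicate. In the levels, 4 of 45 neighbouring pairs did not overlap (3 with RLE, 4 with upper-quartile scaling or TPM), and with TPM 6 of 60 means moved by over 1 SD and 4 of 6 genes kept their highest population (*Arnt*, 245.1, and *Ahrr*, 47.7, in TPM brought to the mean CPM of each gene, were then highest in colonic PDGFRα hi FB).

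The number of all genes called moved by over 1.5 times with DESeq2 (520, 1083, 561, 347 and 427 in the tissue comparisons of PDGFRα hi FB, Fgfr2+ FB, their interaction, pericytes and CD34+ FB, 1211 in SMC, 830 and 516 between Fgfr2+ and PDGFRα hi FB of the small intestine and colon, 986 in CD81+ FB and 83 in CD90+ FB) and with all 30 libraries in 1 model (169, 255, 116, 1003 and 113 in the tissue comparisons). With only the populations compared it was 253 for Fgfr2+ FB between tissues, 1162 for SMC, 707 for small intestinal CD34+ FB, 481 for colonic Fgfr2+ against PDGFRα hi FB and 43 for CD90+ FB. Without the count filter it was 341 for the interaction, 18 for pericytes between tissues and 45 for CD90+ FB, which had 6 with length-scaled counts. Pericytes between tissues had 4 with upper-quartile scaling and 3 with the filter of 10 counts or coding transcripts. With a library left out it ran from 183 to 341 for PDGFRα hi FB and 275 to 499 for Fgfr2+ FB between tissues, 0 to 1 for pericytes, 69 to 388 for CD34+ FB between tissues, 218 to 519 for CD34+ FB within the small intestine, 483 to 987 for SMC, 0.554 times the reported number to 537 and 152 to 315 for Fgfr2+ against PDGFRα hi FB of the small intestine and colon, and 5 to 31 for CD90+ FB. Upper-quartile scaling moved the median of all genes by over 0.1 in 5 of 13 comparisons, by at most 0.16. Small intestinal Fgfr2+ FB replicate 3 is the shallowest library, and there 0 counts allow up to 1.103 CPM.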
